A study of Mus musculus with 192 samples.

Results

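The fibrillar collagen genes Col1a1, Col1a2 and Col3a1 and the matricellular gene Ctgf (current symbol Ccn2) were 4 of the 95 genes that quantitative PCR read in single cells recruited to mouse skin wounds. They were taken from the deposited table by gene name, and each was read by 1 of its 96 TaqMan assays: Mm00801666_g1 for Col1a1, Mm01165187_m1 for Col1a2, Mm01254473_m1 for Col3a1 and Mm01192932_g1 for Ctgf. Recipient mice, either wild type (WT) or with Cxcl12 deleted in the endothelium (EKO), were parabiosed, that is, surgically joined so that blood passed between the animals, to donor mice that express green fluorescent protein (GFP). The sort took lineage-negative, GFP-positive cells out of wounds on the back, so the cells carry the donor's label and the genotype is that of the recipient. No assay of the panel reads GFP. The sources used here do not give the donor's genotype, the driver of the endothelial deletion, the number and age of the animals or the day after wounding. Each genotype had 96 cells, 48 in a set named A and 48 in a set named B.

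Type I collagen is a triple helix of chains encoded by Col1a1 and Col1a2, and type III collagen is built from the chain encoded by Col3a1. Both assemble into the fibrils that give skin and healing wounds their strength, and fibroblasts are their main producers there. Ctgf encodes a secreted matrix-associated protein that is induced by TGF-beta signalling and by the YAP and TAZ coactivators acting with TEAD factors, and it is known for its part in scarring and in vessel growth.

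The promoters of Col1a2 and Col3a1 are shown because the signals of these genes moved together from cell to cell, as described below. The table of RefSeq promoters (assembly GRCm38.p6) held 2 of the 4 genes. The sequences are the 250 bases before the annotated start, 5′ to 3′ on the plus strand, which is the strand of both genes. Capitals mark matches to 5 short motifs searched on both strands: CCAAT, the GC box GGGCGG, the TATA box TATAAA, the TEAD motif GGAATG and the Smad element CAGAC. No match to one motif overlapped a match to another.
Col3a1, chr1:45311288-45311537: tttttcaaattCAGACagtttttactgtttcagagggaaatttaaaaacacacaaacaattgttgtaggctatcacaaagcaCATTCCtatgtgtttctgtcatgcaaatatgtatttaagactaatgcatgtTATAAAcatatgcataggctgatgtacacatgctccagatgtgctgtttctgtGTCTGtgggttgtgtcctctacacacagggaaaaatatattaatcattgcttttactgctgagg
Col1a2, chr6:4505368-4505617: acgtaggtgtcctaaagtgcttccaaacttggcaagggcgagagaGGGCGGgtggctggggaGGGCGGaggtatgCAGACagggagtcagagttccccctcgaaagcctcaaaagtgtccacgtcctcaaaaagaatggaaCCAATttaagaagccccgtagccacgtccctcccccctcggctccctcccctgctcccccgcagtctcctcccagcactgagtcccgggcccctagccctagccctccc

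The Col3a1 window held TATAAA 117 to 112 bases before the start, GGAATG on the opposite strand 168 to 163 bases before it, and CAGAC once on each strand. The Col1a2 window held GGGCGG at 205 to 200 and at 188 to 183 bases before the start, CCAAT at 109 to 105 and CAGAC at 175 to 171. CAGAC was the motif found in both. Of 32851 promoter windows of the same 250 bases in that table, 42.2% held CAGAC, 33.8% CCAAT, 32.7% GGGCGG, 12.6% GGAATG and 12.4% TATAAA. These matches describe the letters and are not binding sites.

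Each value was a cycle threshold (Ct), the cycle at which a reaction crosses the fluorescence threshold. Higher levels give lower Ct values, by about 1 cycle per doubling. A Ct of 40 marks a reaction that did not amplify and was read as not detected. The 4 genes gave 768 reactions, of which 336 amplified (43.8%), against 30.3% of the 18432 reactions of the whole panel. Ct values of different assays are not levels on 1 scale, so no gene was ranked above another by Ct. A cell was kept where it detected at least 10 of the 96 assays, which left 170 cells: 48 WT and 39 EKO cells of set A, and 45 WT and 38 EKO cells of set B. The median kept cell detected 21 assays in WT and 34 in EKO. The labels tie no cell to an animal, so each genotype counted as 1 sample. Shares are given with 95% intervals (exact, Clopper-Pearson) for counting error alone and Ct values with SDs over cells, and no test between genotypes was made. WT cells are numbers 1 to 48 of each set and EKO cells 49 to 96, and position and genotype therefore cannot be told apart.

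Each collagen gave an early and a late signal with few cells between them. Col1a1, the alpha 1 chain of type I collagen, was detected in 99 of the deposited cells, 46 of them between Ct 6.25 and 14.3 and the other 53 at 17.04 or later. No Col1a1 value lay within 1 cycle of 16, the value used to separate early from late signals for all 4 genes. The early cells had a median Ct of 9.83 and the late cells one of 19.4, which are 9.61 cycles apart, or about 783-fold at 1 doubling per cycle.

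Col1a2, the alpha 2 chain of the same protein, showed the same division, with 45 early and 48 late cells among 93 that detected it. The early median was 10.8 and the late median 21.05, a distance of 10.2 cycles. The last early cell stood at 15.8 and the first late cell at 16.5, and 4 cells lay within 1 cycle of 16. The widest space between neighbouring Col1a2 values was 2.96 cycles, from 16.6 to 19.5, so 2 cells counted as late stood on the early side of it.

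Col3a1, the chain of type III collagen, was detected in 111 cells, 47 early and 64 late. Its medians were 9.37 and 20.2, which are 10.8 cycles apart. The last early cell was at 15.98 and the first late cell at 16.4, with 2 cells within 1 cycle of 16. The late signal of Col3a1 reached further than that of the type I chains, to a Ct of 29.97 against 22.01 for Col1a1 and 23.7 for Col1a2 in kept cells.

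Ctgf was read in fewer cells and was not so sharply divided. It was detected in 33 deposited cells, 12 early (median Ct 12.9) and 21 late (18.6), with 5 cells within 1 cycle of 16. The distance between its medians was 5.69 cycles, or about 51.5-fold at 1 doubling per cycle.

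The width of this division placed the collagens at the top of the panel. Among the 70 assays detected in at least 20 cells, the SD of the Ct was 5.75 for Col3a1, 5.19 for Col1a2 and 5.07 for Col1a1, which put 3 of them among the 4 widest. The other was Ly6a, the stem cell antigen Sca-1, at 5.18. The median SD of the 66 assays other than these 4 genes was 2.41. By the widest space between neighbouring values, with at least 10 cells on either side, Angpt1 led with 3.97 cycles, followed by Col1a2 with 2.96 and Col1a1 with 2.79. Col3a1 had 1.29 and Ctgf 1.21 cycles, against a median of 0.45 in the other assays.

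**Figure D1:**
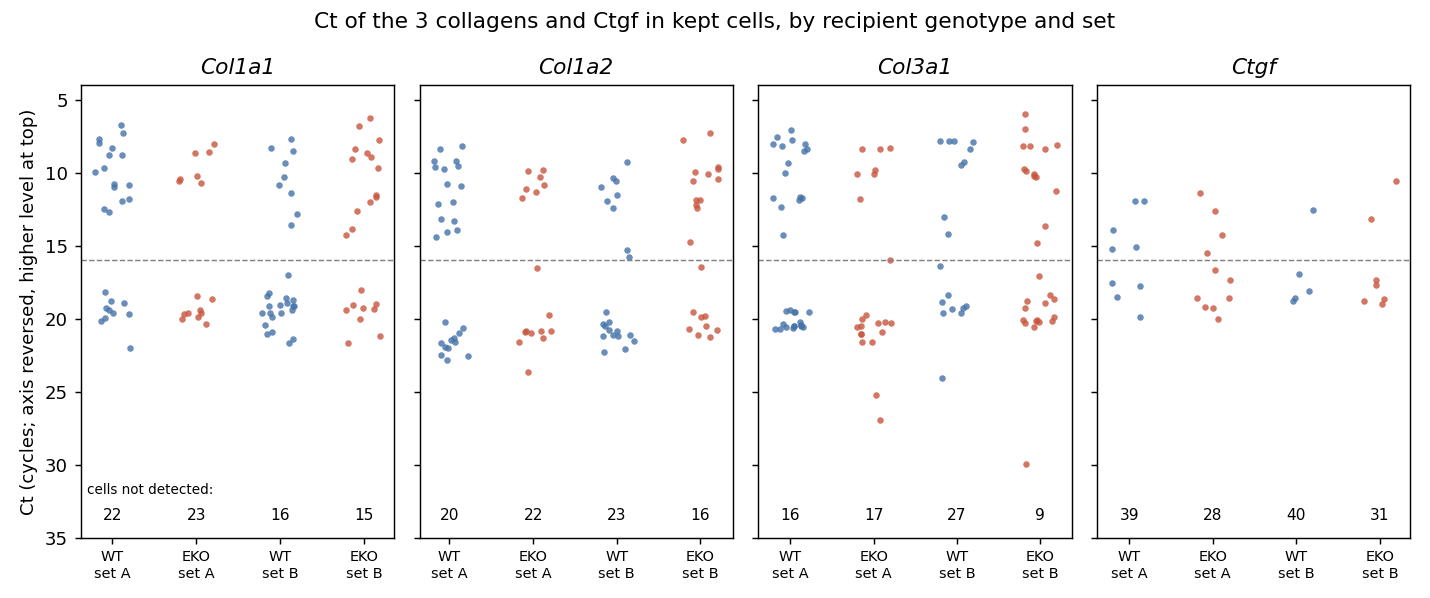
Ct of Col1a1, Col1a2, Col3a1 and Ctgf in each kept cell that detected them, by recipient genotype and set; each point is 1 cell, the Ct axis is reversed so that higher levels are at the top, the dashed line is Ct 16, and the numbers at the foot count cells in which the gene was not detected. In each of the 4 groups the collagens form a cloud above the line and another near Ct 20, and Ctgf is absent from most cells.

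The early signals of the 3 collagens fell in the same cells. Of the 170 kept cells, 45 were early for Col1a1, Col1a2 and Col3a1 together, 1 was early for 2 of them, 1 for a single one, and 123 for none. The 45 cells are called collagen-early cells here. They came from every group: 16 WT and 7 EKO cells of set A, and 9 WT and 13 EKO cells of set B. The late signals did not overlap in this way. Of the 123 cells with no early collagen, 32 had no collagen signal, 50 had a late signal for 1 collagen, 29 for 2 and 12 for all 3. A late Col3a1 signal was present in 42.9% of the 42 of these cells with late Col1a2 and in 44.4% of the 81 without it. For late Col1a1 the shares were 52.4% of the 42 cells with late Col1a2 and 32.1% of the 81 without.

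The 2 cells with a partial early signal were both from EKO recipients. One, in set A, had Col3a1 at 15.98 and Col1a2 at 16.6, just on either side of the boundary, and no Col1a1. It detected 67 of the 92 assays for other genes, with all 6 measured endothelial markers (Pecam1, Cdh5, Kdr, Flt1, Tek and Cd34) and no Pdgfra. The other, in set B, had Col1a1 at 13.9, Col3a1 at 14.8 and Col1a2 at 16.5, with Pdgfra at 17.6. With the boundary at Ct 18 it would count among the collagen-early cells.

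Within the collagen-early cells the level of the collagens varied widely and in parallel. Col1a1 ran from 6.25 to 14.3 with a median Ct of 9.71 ± 1.96 (SD, 45 cells), a range of 8.005 cycles or about 257-fold at 1 doubling per cycle. Col1a2 ran from 7.27 to 15.8 (median 10.8 ± 1.96) and Col3a1 from 5.96 to 14.3 (median 9.26 ± 2.003). A cell with more of one had more of the others. In the 15 cells with the lowest Col1a1 Ct, the median Ct of Col1a2 was 9.62 and that of Col3a1 7.94. In the 15 cells with the highest, the medians were 12.4 and 11.7.

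The correlation across these 45 cells was 0.93 for Col1a1 with Col1a2 (Pearson's r; Spearman's rho 0.94), 0.90 for Col1a1 with Col3a1 (rho 0.90) and 0.91 for Col1a2 with Col3a1 (rho 0.87). The cells come from 2 sets and differ in yield, so r is a description and carries no p-value. Inside set A the values were 0.94, 0.91 and 0.91 over 23 cells, and inside set B 0.93, 0.92 and 0.92 over 22 cells. In cells from EKO recipients they were 0.96, 0.93 and 0.92 (20 cells), and in cells from WT recipients 0.95, 0.90 and 0.91 (25 cells). The parallel course was therefore present in either set and either genotype. The within-cell difference between the Ct of Col1a1 and that of Col1a2 had an SD of 0.72 cycles, that between Col1a1 and Col3a1 0.88 and that between Col1a2 and Col3a1 0.86, each under the SD of about 2 cycles of the genes themselves.

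These were the 3 highest of the 1324 correlations between assays that shared at least 20 collagen-early cells. The next was 0.82, between the integrin subunit Itga5 and the metalloproteinase inhibitor Timp1, and the median of the other 1321 pairs was 0.17. Of 53 assays outside the collagens, Fgfr1, a fibroblast growth factor receptor, ran closest to them, with a median r of 0.67 to the 3 collagens. Next was Cd47, a surface protein that inhibits phagocytosis, with 0.61. At the other end stood 2 genes of the blood lineage, Cd48 with −0.35 and Ptprc, which encodes CD45, with −0.33. The median over the 53 assays was 0.24.

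Cell yield moved with the collagen level. The median Ct of a cell's other assays correlated with Col1a1 at 0.48, with Col1a2 at 0.62 and with Col3a1 at 0.60. After it was subtracted from each cell, the correlations between the collagens were 0.91, 0.86 and 0.86. The reference gene Actb, beta-actin, correlated with the collagens at 0.49, 0.56 and 0.44, and Rn18s, the 18S ribosomal RNA, at 0.04, 0.11 and 0.17. B2m, a subunit of MHC class I, gave −0.12, −0.10 and 0.06.

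The late signals did not share this order. Over cells late for both genes, r was 0.15 for Col1a1 with Col1a2 (22 cells), 0.39 for Col1a1 with Col3a1 (25 cells) and 0.43 for Col1a2 with Col3a1 (18 cells). The late signals also span a smaller range, with an SD of 1.01 for Col1a1 in kept cells against 2.02 for its early signal.

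**Figure D2:**
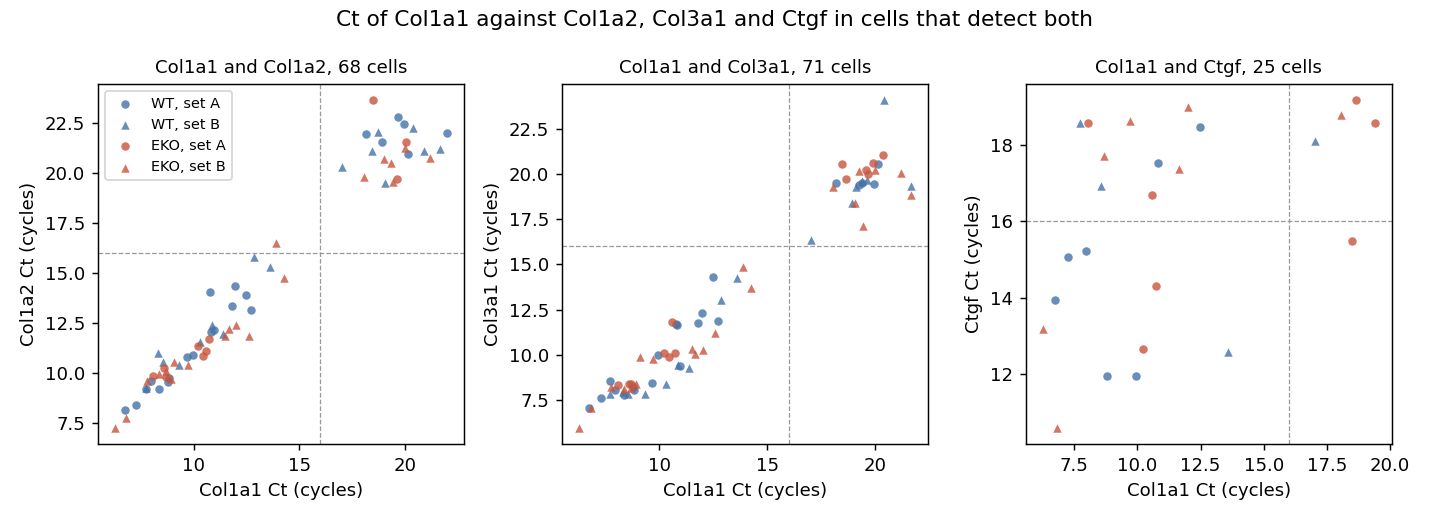
Ct of Col1a1 (horizontal axis, cycles) against Ct of Col1a2, Col3a1 and Ctgf (vertical axes, cycles) in kept cells that detected both; each point is 1 cell, colours give the genotype, shapes the set, and dashed lines mark Ct 16. The collagens lie along a line at the lower left and in a separate cloud at the upper right. Ctgf is more scattered over its 25 cells (r 0.43 with Col1a1).

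Ctgf followed the collagens in level less closely than they followed one another. It was detected in 20 of the 45 collagen-early cells (44.4%, 29.6 to 60.003%), between Ct 10.6 and 19.002 with a median of 15.96 ± 2.74. In these 20 cells its r was 0.23 with Col1a1, 0.25 with Col1a2 and 0.21 with Col3a1. In the 10 EKO cells r was 0.49, 0.53 and 0.43, and in the 10 WT cells −0.02, 0.04 and 0.09. Inside set A (11 cells) it was 0.26, 0.36 and 0.46, and inside set B (9 cells) 0.22, 0.18 and 0.05. Without the 2 cells farthest from the median of the collagen it was 0.35, 0.42 and 0.32, so at this number of cells r was not well fixed. In the other 125 kept cells it was detected in 12 (9.60%, 5.06 to 16.2%), with a median Ct of 18.7 ± 2.39. Collagen-early cells thus detected Ctgf more often than the rest, and the 2 intervals did not overlap. How many other assays differ in this way was not counted, so the contrast is not read as particular to Ctgf.

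That contrast moved with cell yield. Collagen-early cells detected 33 to 58 of the 92 other assays (median 49), while the other 125 cells had a median of 18. Among 12 cells that also detected at least 40 other assays but were not collagen-early, Ctgf was detected in 6 (50%, 21.1 to 78.9%). Each of these 6 was an EKO cell of set A, where 6 of 7 detected Ctgf, against 0 of the other 5 cells, and 8 of the 12 cells carried at least 4 endothelial markers. Those 12 cells were 2 WT and 7 EKO cells of set A and 1 WT and 2 EKO cells of set B.

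Of the 12 cells with Ctgf and without the early collagens, 6 carried at least 4 of the 6 endothelial markers. Over all kept cells, 8 carried at least 4 of those markers and were not collagen-early, 7 of them EKO cells of set A and 1 a WT cell of set B. Ctgf was detected in 6 of these 8 (75%, 34.9 to 96.8%) at Ct 11.4 to 19.3, and Pdgfra in none. The collagens were detected in some of them, Col1a1 in 3, Col1a2 in 4 and Col3a1 in 5, each late but for 1 Col3a1 value. Another 5 cells with at least 4 endothelial markers were collagen-early, each with Pdgfra, and 1 of them detected Ctgf.

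The early signal went with cells that amplified much of the panel. Cells were placed in bins by the number of the 92 other assays they detected, so that no collagen counted towards its own bin. In the 25 cells with fewer than 10 and the 75 with 10 to 23, none was early for any of the 4 genes. A count of 0 of 75 allows a share of up to 4%, taking 3 counts as the limit. Of the 37 cells with 24 to 39, Col1a1 was early in 3 (8.11%, 1.70 to 21.9%), Col1a2 in 2 and Col3a1 in 3. Of the 55 cells with 40 or more, Col1a1 and Col1a2 were early in 43 each (78.2%, 64.99 to 88.2%), Col3a1 in 44 (80%, 67.03 to 89.6%) and Ctgf in 12 (21.8%, 11.8 to 35.01%).

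Over both genotypes together, the share of cells with a late collagen signal was lower in the highest bin than in the 3 below it. From the lowest bin to the highest, Col1a1 was late in 28, 33.3, 40.5 and 10.9% of cells, Col1a2 in 24, 29.3, 35.1 and 12.7%, and Col3a1 in 44, 37.3, 45.9 and 14.5%. The 3 lower bins lay within one another's intervals. Cells of the highest bin that were early could not also be late, so its shares are not comparable with those below. Of its 12 cells that were not collagen-early, Col1a1 was late in 6 and Col1a2 in 7, and Col3a1 was detected in 9, 1 of them early. Shares among cells without an early signal were not compared between bins, so no relation of the late signals to yield is read from these values. The bins differ in makeup, with 20 EKO and 5 WT cells in the lowest and 24 and 51 in the next. Late Col1a1 in EKO was found in 10, 20.8 and 37.5% of cells over the 3 lower bins, with overlapping intervals, and in WT in 100, 39.2 and 46.2%. In the lowest bin the counts were 2 of 20 in EKO (1.23 to 31.7%) and 5 of 5 in WT (47.8 to 100%). This is 1 bin of 1 gene, and 4 of the 5 WT cells were of set B. It is therefore not read as a difference between genotypes. Late Ctgf was found in 4, 2.67, 10.8 and 25.5% of cells, with 21.8% of the highest bin early.

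The Ct of the late collagen signals barely moved with the yield. The median late Ct of Col1a1 was 19.5, 19.6, 19.4 and 19.04 from the lowest to the highest bin, and that of Col1a2 was 21.3, 21.1, 20.7 and 20.9. Cells with fewer than 24 assays stood later than cells with 24 or more by 0.16 cycles for Col3a1, 0.17 for Col1a1 and 0.35 for Col1a2. For 25 other assays with enough cells on both sides, the median of that shift was 2.30 cycles, with 6.46 for Actb, 5.42 for B2m and 1.40 for Rn18s. The collagen values take in the late cells alone, while those of the other assays take in each detecting cell. Leaving out the early cells limits how far a collagen median can move. The collagen shifts are therefore not compared with those of the other assays. Among the others, 4 shifted by less than 0.5 cycles: Wnt3a (−0.10), 1 of the 2 Cxcl12 assays (0.36), Nog (−0.40) and Sox2 (−0.48). Wnt3a, Nog and Sox2 are best known from early development. What the late signal is was not tested: the files hold no reaction without template and no melting curve. As background on the assay design, a probe with the suffix m1 spans an exon junction, whereas an assay with the suffix g1, as for Col1a1 and Ctgf, may also read genomic DNA. The late signal was found with assays of either suffix, and whether genomic DNA had a part in it was not tested.

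**Figure D3:**
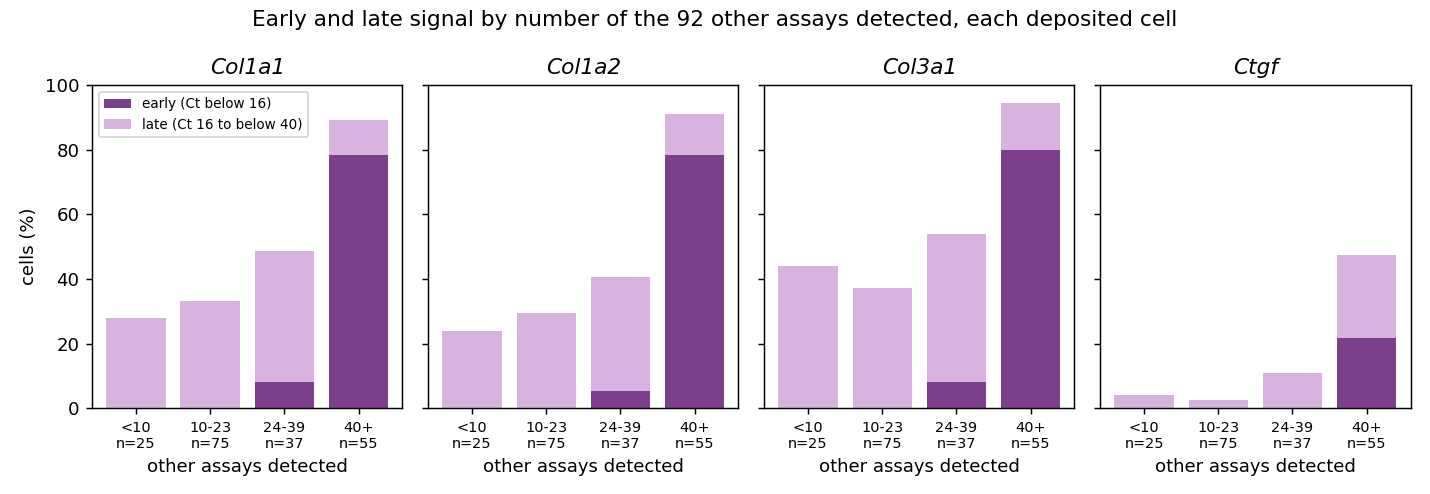
Share of cells (%) with an early signal (Ct below 16, dark) and a late signal (Ct 16 to below 40, pale) of Col1a1, Col1a2, Col3a1 and Ctgf, over each deposited cell in bins of the number of the 92 other assays detected. Early bars are absent below 24 assays and reach 78.2 to 80% for the collagens at 40 or more, while the pale bars are similar over the 3 lower bins.

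**Figure D4:**
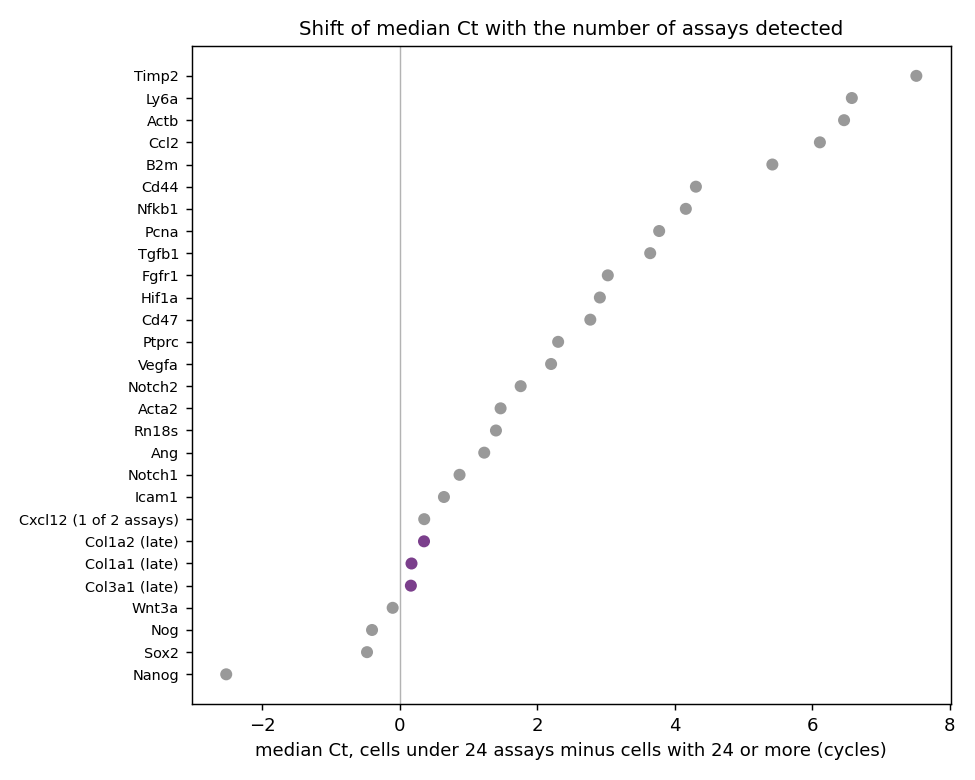
Shift of the median Ct (cycles), cells with fewer than 24 assays minus cells with 24 or more, for the late signals of the 3 collagens (purple) and for 25 other assays over each detecting cell (grey). The collagens lie at 0.16 to 0.35 cycles, and the median of the others is 2.30. Leaving out early cells limits the collagen shifts, so the purple and grey values are not compared.

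The genes whose pattern was most like that of the collagens were taken by Spearman's rho over the 95 cells with at least 24 assays, with failed reactions at 40, among 77 assays. For Col1a1 they were Col3a1 (0.92), Col1a2 (0.90), Pdgfra (0.85), Timp2 (0.77) and Ackr3 (0.74). Pdgfra, a platelet-derived growth factor receptor and a marker of fibroblasts and their precursors, came next after the other collagens for Col1a2 (0.85) and Col3a1 (0.85) too, followed by Timp2, an inhibitor of matrix metalloproteinases (0.82 and 0.80). The last of the 5 was Ang, angiogenin, for Col1a2 (0.80) and Timp1 for Col3a1 (0.78). The median rho over the assays was 0.29 for Col1a1, 0.31 for Col1a2 and 0.34 for Col3a1. For Ctgf no assay came near these values: the closest were Timp1 (0.39), the Notch ligand Jag1 (0.38), Runx1 (0.37), Timp2 (0.37) and Tgfb3 (0.37), over a median of 0.19.

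Pdgfra was read in each of the 45 collagen-early cells, at a median Ct of 15.3 ± 1.75. It was detected in 52 kept cells, 45 of which were collagen-early (86.5%, 74.2 to 94.4%), and none of the 118 cells without Pdgfra was collagen-early (a share of up to 2.54% by the same limit). Among the 12 cells with at least 40 other assays that were not collagen-early, Pdgfra was detected in 0. The surface glycoprotein Thy1 was detected in 45 of the 45 cells and in 6 of the 12. Of the 5 mesenchymal markers matched by name in a list of 8, Eng (35 of 45), Pdgfrb (19) and Acta2 (18) were found in part of the collagen-early cells. Dpp4, also on that list, was read under the name Dppiv, in 68.9% of the collagen-early cells and 33.3% of the 12.

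Markers of other cell types were present to an unequal degree. Ptprc, the pan-leukocyte antigen CD45, was detected in 31 of the 45 collagen-early cells (68.9%, 53.4 to 81.8%; median Ct 16.7 ± 1.35), although the sort was for lineage-negative cells. The macrophage gene Adgre1 was detected in 0 and the myeloid integrin Itgam in 1 of 45. Cd48, an antigen of many blood cells, was detected in 22 (48.9%, 33.7 to 64.2%). Kit, the receptor of blood progenitors, was detected in 4 and Gata2 in 2. Of the mural markers not yet named, Mcam was detected in 1 and Cspg4 in 2. Of the 6 endothelial markers, Cd34 was detected in 41, Pecam1 in 20, Tek in 15, Kdr in 13, Flt1 in 3 and Cdh5 in 2, and the epithelial marker Trp63 in 1. Fibroblast-type receptors and CD45 transcript were thus read from the same cells, and whether each reaction set held a single cell was not tested.

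The collagen level was lower where Ptprc was detected. In the 31 collagen-early cells with Ptprc the median Ct of Col1a1 was 10.2 ± 1.61, against 8.67 ± 2.56 in the 14 without it. For Col1a2 the medians were 11.005 ± 1.52 and 9.81 ± 2.73, and for Col3a1 9.45 ± 1.79 and 8.26 ± 2.46. Each difference was smaller than the SD over the cells without Ptprc. Actb stood later in the cells with Ptprc too, at 10.7 against 9.97, and Rn18s earlier, at 5.20 against 5.49. Ctgf was detected in 12 of the 31 cells with Ptprc and in 8 of the 14 without.

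Other genes of the extracellular matrix were read from a list of 24, of which 6 were on the panel. Besides Timp1 (44 of 45 collagen-early cells) and Timp2 (45 of 45), they were the hyaluronan receptor Cd44 (45 of 45), the integrin subunits Itga5 (42 of 45) and Itgb3 (36 of 45), and Mmp9, a gelatinase (4 of 45). In the 12 cells of like yield without the early collagens, Timp1 and Timp2 were detected in 10 each, Cd44, Itga5 and Itgb3 in 11 each and Mmp9 in 2. Apart from Mmp9, which was rare in either, these genes were frequent in cells of high yield with or without the early collagens.

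Of 15 genes of the TGF-beta pathway, which induces collagens and Ctgf, 5 were measured. The ligand Tgfb1 was detected in 43 of 45 collagen-early cells and in 12 of the 12 cells of like yield. The ligand Tgfb3 was detected in 35 of 45 (77.8%, 62.9 to 88.8%) and in 4 of 12 (33.3%, 9.92 to 65.1%), with overlapping intervals. The receptor Tgfbr1 was read in 39 of 45 and 10 of 12, the co-receptor endoglin (Eng) in 35 of 45 and 8 of 12, and the BMP antagonist Nog in 7 of 45 and 4 of 12.

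The comparison of the recipients' genotypes asked which cells are recruited when the endothelium lacks Cxcl12. For the early collagens the 2 genotypes had nearly the same share, and the 2 sets pointed in opposite directions. Collagen-early cells were 20 of 77 in EKO (25.97%, 16.6 to 37.2%) and 25 of 93 in WT (26.9%, 18.2 to 37.1%), a difference of −0.91 percentage points (EKO minus WT; 95% interval −13.9 to 12.5). In set A they were 7 of 39 (17.9%) against 16 of 48 (33.3%), a difference of −15.4 points. In set B they were 13 of 38 (34.2%) against 9 of 45 (20%), a difference of 14.2 points. The order of the 4 groups was EKO of set B, WT of set A, WT of set B and EKO of set A, and their intervals all overlapped. The single collagens gave −15.4 and 16.8 points for early Col1a1, −15.4 and 14.2 for early Col1a2 and −12.8 and 16.8 for early Col3a1 in sets A and B. Early Ctgf was found in 6 cells of each genotype.

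By detection at any Ct in kept cells, none of the 4 genes differed by 10 points or more with the same sign in both sets. In the kept cells 20 of 96 assays were higher in EKO by that rule (20.8%) and 0 were lower (0%). For the share of cells below Ct 16 the rule took up 10 of 96 as higher (10.4%) and 0 as lower (0%), again with none of the 4. Col1a1 was detected in 39 of 77 EKO cells (50.6%) and 55 of 93 WT cells (59.1%), a difference of −8.49 points (−22.9 to 6.39), or −13.1 within set A and −3.92 within set B. With no filter on cells the Col1a1 difference was −17.7 points (−30.9 to −3.57), −20.8 (A) and −14.6 (B). Col1a1 then was 1 of 7 assays (7.29%) lower in EKO by the 10-point rule, while 6 (6.25%) were higher. For Col1a2 the counts were 39 (50.6%) and 50 (53.8%), or −14.7 points within set A and 9.01 within set B. Over all assays the median difference was 5.70 points, and over these 4 genes it was 2.60.

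Col3a1 had the widest split between sets. EKO had 51 of 77 detecting cells (66.2%) and WT 50 of 93 (53.8%), a difference of 12.5 points (−2.33 to 26.4). In set A the shares were 56.4% in EKO and 66.7% in WT, or −10.3 points. In set B they were 76.3 and 40%, or 36.3 points (15.04 to 53.1). Late signals made up 19.5 of those 36.3 points and early signals 16.8. In the same set B late Col1a1 went the other way, with 23.7% of EKO and 44.4% of WT cells (−20.8 points, −38.7 to −0.18). Ctgf had a higher share in EKO within set A, by 9.46 points, and within set B, by 7.31. The counts were 18 of 77 in EKO (23.4%, 14.5 to 34.4%) and 14 of 93 in WT (15.1%, 8.48 to 23.97%). Its pooled difference of 8.32 points had an interval from −3.49 to 20.4.

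Among cells with at least 24 assays, 53 EKO and 42 WT, the collagens were less often early in EKO, and set A carried the difference. Collagen-early cells were 37.7% of EKO and 59.5% of WT cells, −21.8 points (−39.7 to −1.61): the sets gave −38.7 (A) and −3.57 (B). Detection of Col1a2 differed by −27.2 points (−42.6 to −8.95), that is −51.8 (A) and −0.79 (B). Col1a1 differed by −14.9 points, that is −27.2 (A) and −4.76 (B), and Col3a1 by −1.21. Col1a1 and Col1a2 were 2 of the 11 assays (11.5%) that met the 10-point rule as lower in EKO, and 4 of 96 (4.17%) were higher.

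The cells of set A that detect endothelial markers stood beside this difference. With 40 or more other assays, 7 of 14 EKO cells and 15 of 17 WT cells of set A were collagen-early, against 12 of 14 and 9 of 10 in set B. The 7 EKO cells with at least 4 endothelial markers and without early collagens were all of set A. Their part in the difference was not tested.

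**Figure D5:**
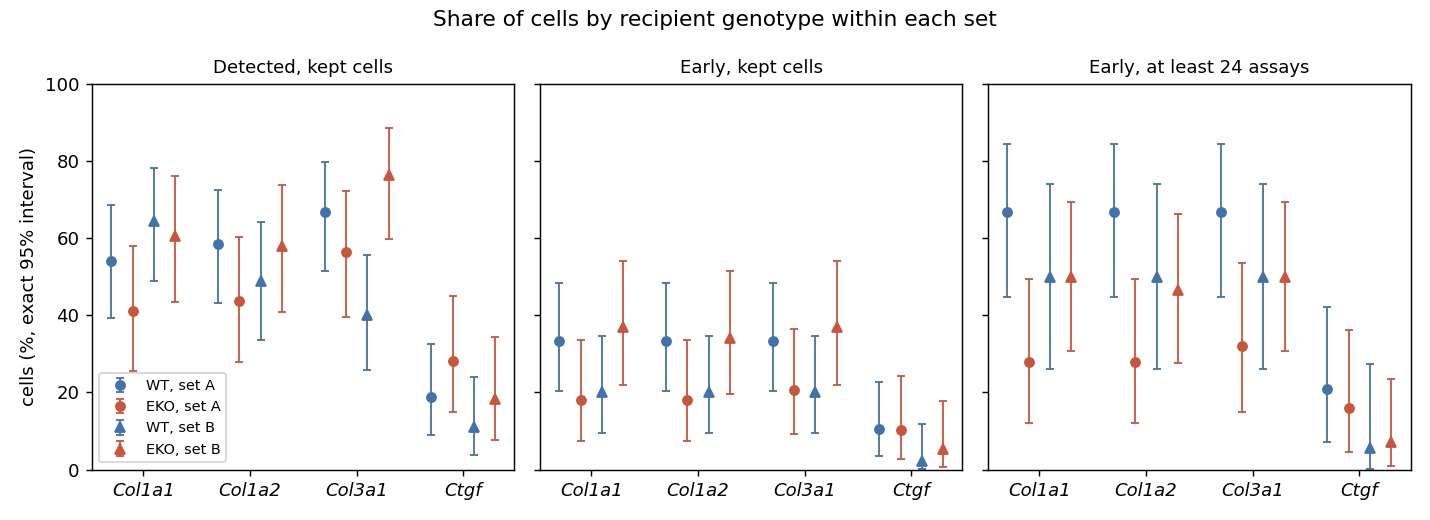
Share of cells (%) in which each gene was detected at any Ct (left) or early (middle) among kept cells, and early among cells with at least 24 assays (right), for WT (blue) and EKO (red) in set A (circles) and set B (triangles); bars are exact 95% intervals for counting error. For the early collagens in kept cells EKO lies below WT in set A and above it in set B.

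By the median Ct, Col3a1 was the one collagen that stood later in EKO in both sets, but the mean did not bear this out to the same degree. In collagen-early cells its Ct ran from 5.96 to 13.7 in EKO with a median of 9.80 ± 1.74 (20 cells) and from 7.07 to 14.3 in WT with a median of 8.53 ± 2.22 (25 cells). That is 1.27 cycles later, or 0.90 within set A and 1.35 within set B, smaller than the SD over cells, and the ranges overlapped. Over each cell with an early Col3a1 signal the difference was 1.34 cycles by the median and 0.25 by the mean. Col1a1 had medians of 9.40 ± 2.01 in EKO and 9.94 ± 1.94 in WT, or 0.40 cycles apart within set A and −1.22 within set B. Col1a2 had 10.5 ± 1.64 and 11.005 ± 2.15, with −0.01 and −1.10. The reference genes also differed in these cells, Actb by −0.85 cycles, Rn18s by −0.90 and B2m by 1.12. Within sets A and B the values were −0.94 and −0.77 for Actb, −0.40 and −0.29 for Rn18s, and 0.81 and 1.84 for B2m. The pooled Rn18s value was thus wider than that of either set. Within a cell, Col1a1 stood 0.30 ± 0.76 cycles later than Col3a1 in EKO and 0.07 ± 0.99 cycles later in WT, so that relative to Col1a1 the median of Col3a1 was not later in EKO.

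Over each kept cell that detected the gene, the median Ct mixes early and late signals. Col1a1 then stood at 13.9 in EKO and 18.3 in WT, −4.40 cycles apart, but 6.68 within set A and −6.34 within set B. Col1a2 differed by −2.92 cycles, by 5.73 within set A and by −7.98 within set B. These shifts follow which signal holds the middle cell: the late signals themselves differed between genotypes by 0.09 cycles for Col1a1 and −0.39 for Col1a2. Col3a1 differed by 3.49 cycles, or 3.41 within set A and 1.81 within set B. It was 1 of 4 among 44 assays (9.09%) that stood later in EKO by at least 1 cycle over both sets together, with the same sign in each set. Another 16 (36.4%) stood earlier by the same rule, none of them a collagen or Ctgf. Ctgf had medians of 17.6 in EKO and 17.2 in WT, 0.31 cycles apart, but 2.15 within set A and −0.38 within set B.

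For the matrix list the median difference in detecting cells was 4.56 points in kept cells, where 4 of 6 genes were higher in EKO within each set by any amount and 0 lower. For the TGF-beta list it was 5.99 points, with 3 of 5 higher and 0 lower. Over all assays 44.8% were higher and 6.25% lower in this way, and the median of 5.70 points lay between those of the lists. In cells with at least 24 assays the matrix list had a median of −4.42 points, with 0 genes higher and 2 lower, and the TGF-beta list −8.09 points with 0 either way. Over all assays the median was then −0.07 points, with 14.6% higher and 21.9% lower. Timp1 differed most among the matrix genes in kept cells, by 7.21 points (A) and 27.8 (B). Among the TGF-beta genes it was Nog, with 3.85 and −26.4.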

How the data were processed

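Lineage-negative, GFP-positive cells from dorsal wounds were read with 96 TaqMan assays each, per the labels. The authors deposited 1 table of values per assay and cell. Its unit is not named in the file: values were read as cycle thresholds (Ct), another unit than counts or intensities, since the deposited values do not exceed 40 and failed reactions stand at 40. The sources used here give no instrument, threshold, preamplification or lineage antibodies. The labels gave genotype and cell number, and the cell's title the set. Sets were treated as chips, which is an inference, since the titles give their letters alone. Whether the sets also differ in animals or in sorting is not known.

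Detected was a Ct below 40, early a Ct below 16, and kept cells detected at least 10 assays. Shares carry Clopper-Pearson and differences Newcombe 95% intervals. The genes, gene lists, boundary and marker lists were chosen with earlier results of these data known. Correlations are reported within collagen-early cells, a choice made after seeing the data. Other assays were named as the 5 most alike by Spearman's rho per gene, with up to 3 per list by share difference, besides all measured members of the marker, matrix and TGF-beta lists in collagen-early cells. The assays at the ends of the correlation order, and Angpt1, Ly6a, Wnt3a and Sox2, were named after their values were seen. Names follow a RefSeq table (GRCm38.p6), with Cxcr7 printed as Ackr3, Emr1 as Adgre1 and Tie2 as Tek. Dppiv, the panel's name for Dpp4, was not matched to it. The functions were tested on simulated data: for WT against EKO over 96 assays in 50 draws, 10 assays set 30 points apart were recovered at 29.7 points, and a set r of 0.9 as 0.89. Alternatives are in the closing section. Scripts ran under Python 3.11.15 (pandas 2.3.3, NumPy 2.4.6, Matplotlib 3.10.9, SciPy 1.17.1).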

Additional observations from a re-analysis of the deposited data

Results flagged for a closer look

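The difference between EKO and WT had opposite signs in the 2 sets for 7 of the detected and early shares, and none of these contrasts was tested, since each genotype is 1 sample. For detection in kept cells, 43 of all 96 assays (44.8%) were higher in EKO in both sets and 6 (6.25%) lower in both. The rest, Col1a2 and Col3a1 among them, had opposite signs or no difference in a set. For detection, a lack of a common sign was thus not particular to these genes. For the early shares, differences of any size were not counted over all assays. Set B minus set A, the difference of early shares moved by 32.2 percentage points for Col1a1, 29.6 for Col1a2, 29.7 for Col3a1 and 29.6 for cells early for all 3 collagens. For detection at any Ct it moved by 23.7 points for Col1a2 and by 46.6 for Col3a1. Early Ctgf moved by 3.20 points, which rests on 9 early cells in set A and 3 in set B.

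A collagen signal was also present in the 22 cells left out for detecting fewer than 10 assays. Col1a1 was detected in 5 of them (22.7%, 7.82 to 45.4%), Col1a2 in 4 (18.2%, 5.19 to 40.3%) and Col3a1 in 10 (45.5%, 24.4 to 67.8%), each late, with median Ct values of 19.5, 21.3 and 19.7. Ctgf was detected in 1.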

How the results depend on the processing

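Leaving out replicates was not possible, and no paired analysis was possible because each genotype is 1 sample. Of 105 values that answer a comparison under an alternative, 87 moved by less than the interval of the share, by less than 0.1 for a correlation, or little for the count of collagen-early cells, and 18 moved further. The intervals are wide, and a sign could change inside them: Col1a2 detection was −3.11 points in kept cells and 9.01 in set B alone. Among the alternatives for median Ct and for the Ctgf correlations, 43 moved by less than 1 SD over WT cells or 0.1 of r, and 21 moved further. That SD mixes early and late signals and is wide, at 5.03 cycles for Col1a1, 5.21 for Col1a2 and 5.46 for Col3a1. The Col1a1 difference thus counted as little moved when it went from −4.40 cycles to 0.003 after subtracting the mean of the reference genes. With at least 24 assays the EKO minus WT difference was −27.2 points for Col1a2 detection, and −19.9, −21.8 and −18.0 for early Col1a1, Col1a2 and Col3a1. Set A alone gave −10.3 for Col3a1 detection and −15.4, −15.4 and −12.8 for the early shares, and set B alone 36.3, 16.8, 14.2 and 16.8. The correlations of Col1a1 with Col1a2, Col1a1 with Col3a1 and Col1a2 with Col3a1 were 0.15, 0.39 and 0.43 over late cells, and 0.67, 0.63 and 0.60 over kept cells with failed reactions at 40. The cause was not tested. Boundaries of Ct 14 and 18 and no filter gave 39 to 46 cells early for the 3 collagens, against 45. Weighting by yield left each detection share within its interval. Ct limits of 35 and 30 could not change a detection share, since the latest value of these genes in kept cells was 29.97. The limit of 28 could change Col3a1 alone, because the latest values were 22.01 for Col1a1, 23.7 for Col1a2 and 19.99 for Ctgf. It took the Col3a1 difference from 12.5 to 11.2 points. The 87 values counted above include these limits, and those that could not change a share are no test of it. The number of cells limits the precision: the early Col1a1 share of WT cells in set B has an interval of 9.58 to 34.6%.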

Other observations

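By position, the collagen-early cells were spread over each set. In set A, cells 1 to 24 held 7, cells 25 to 48 held 9, cells 49 to 72 held 2 and cells 73 to 96 held 5. In set B the same blocks held 5, 4, 5 and 8. The set A block with 2 collagen-early cells had a median of 29 assays detected, the highest of that set.

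Other genes were read in a larger share of collagen-early cells than of the 12 cells of like yield without the early collagens, 8 of which carried at least 4 endothelial markers. Vegfa, a vessel growth factor, was detected in 95.6 and 41.7%, and the monocyte chemokine Ccl2 in 93.3 and 41.7%. The Wnt ligand Wnt5a was detected in 46.7% of collagen-early cells and in none of the 12, and the Cxcl12 assay Mm00457276_m1 in 44.4% and in none. They were chosen after their values were seen, for their difference, and stand as a description.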
